A study of Mus musculus with 18 samples.

Results

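Blood clotting and clot removal were followed in whole B16F10 tumors through 9 genes: F3, F10 and F13a1, which start clotting and strengthen the clot, Thbd, Procr and Tfpi, which restrain it, and Plau, Plat and Plaur, which dissolve fibrin. They were taken by name as rows of a table of 50600 genes, and all 9 were among the 16927 genes with enough counts to test. The 9 were chosen with earlier results of these data known. Their counts beside the share of all genes are therefore a description and not evidence of enrichment. After 2 doses of free CDN2 (20 µg), a cyclic dinucleotide agonist of the innate immune sensor STING, 7 of the 9 transcripts were higher than after PBS, led by Thbd, F10 and Plaur, against 20% of all genes tested called higher. After 2 doses of exoCDN2, the same compound loaded into extracellular vesicles (EVs) and given at 0.1 µg, 3 of the 9 were higher (F10, Plat and Plau), against 8.87% of all genes. F3, the gene of tissue factor, was called higher after 1 dose of exoCDN2 or of CDN2 (20 µg). Both calls ended when single tumors were left out. Of the 2 tumors given 2 doses of CDN2 (20 µg), 1 stood apart, and the called rises were smaller without it. Against the PBS tumors of both times together, F10 alone of the 3 genes kept its call with exoCDN2.

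Tissue factor, the product of F3, is a membrane receptor that binds factor VIIa and activates factor X, the product of F10, and factor Xa then makes thrombin. Thrombin turns fibrinogen into fibrin, which factor XIIIa cross-links; F13a1 encodes its catalytic chain, which macrophages and platelets carry. The brakes lie on membranes or are released nearby: TFPI blocks tissue factor and factor Xa, thrombomodulin (Thbd) switches thrombin to the activation of protein C, and the endothelial protein C receptor (Procr) presents protein C to that complex. Fibrin is removed by plasmin, which urokinase (Plau, bound by its receptor Plaur) and tissue plasminogen activator (Plat) release from plasminogen. Monocytes, endothelial cells and many tumor cells express several of these genes, and inflammation is known to raise tissue factor on monocytes.

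B16F10 is a mouse melanoma cell line, here grown under the skin of female C57BL/6 mice (their age is not in the sample labels). Tumors were injected with PBS, unloaded EVs, exoCDN2 (0.1 µg, labelled exoCL656), CDN2 (20 µg, labelled CL656) or CDN2 (100 µg) and taken 24 h after a single dose, or with PBS, exoCDN2 or CDN2 (20 µg) and taken 24 h after a second dose given 3 days after the first. A further group received 2 doses of CDN2 whose amount the labels do not give, and it entered no comparison but its own. Each of the 9 groups had 2 tumors, so all 18 tumors carry the same line and differ in agent, amount and number of doses, and the vesicles came from human HEK293 cells made to overexpress PTGFRN. Because the agents were given at different amounts, exoCDN2 and CDN2 were compared as given and not at a matched dose. No group received 2 doses of unloaded EVs, so after 2 doses of exoCDN2 the vesicles and their load cannot be told apart. The study describes the tumors of a group as biological replicates. The p-values rest on a spread between such tumors that all groups of a fit share, not on that of the groups compared. The tumors given 2 doses of CDN2 (20 µg) differed most for Thbd, Procr and Plaur, with log2 SDs of 2.3, 1.81 and 1.67. For these genes the shared spread may understate that of this group.

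Total expected counts lay between 38671428 and 65983630 in 17 tumors and reached 21608895 in the last, tumor 1 of CDN2 (20 µg), 2 doses. That tumor stood apart in other ways. Its correlation with its partner was 0.944, the lowest of the 9 pairs, and its summed melanoma markers reached 6990 CPM (library-size scaled counts) against 12700 in the partner and 15200 to 25300 elsewhere. Its neutrophil, monocyte and platelet markers summed to 906, 1800 and 89.8 CPM, the highest of all tumors. For the 9 genes, fold changes called in comparisons that include it are given with and without it. A whole-tumor value mixes many cells, so more cells of a type and more RNA per cell cannot be told apart. All 7 melanoma markers were detected in every tumor, which fits the label, and the 4 hepatocyte markers (Alb, Apoa1, Ttr, Apoc3) summed to at most 0.315 CPM.

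F3, Procr and Plaur were among the genes that rose with 2 doses of CDN2 (20 µg), and the DNA just before their start sites holds the AP-1 motif, the binding word of Fos and Jun proteins. The 250 bases before each RefSeq start site are shown for this reason (GRCm38.p6, plus strand, 5′ to 3′), with AP-1 motifs (TGANTCA) in capitals, from chr3:121723287-121723536 for F3, chr2:155750967-155751216 for Procr and chr7:24462233-24462482 for Plaur.
F3: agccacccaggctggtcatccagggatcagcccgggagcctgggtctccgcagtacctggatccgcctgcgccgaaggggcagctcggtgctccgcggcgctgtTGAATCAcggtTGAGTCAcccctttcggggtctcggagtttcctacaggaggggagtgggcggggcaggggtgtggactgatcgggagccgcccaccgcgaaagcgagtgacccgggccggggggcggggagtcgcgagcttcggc
Procr: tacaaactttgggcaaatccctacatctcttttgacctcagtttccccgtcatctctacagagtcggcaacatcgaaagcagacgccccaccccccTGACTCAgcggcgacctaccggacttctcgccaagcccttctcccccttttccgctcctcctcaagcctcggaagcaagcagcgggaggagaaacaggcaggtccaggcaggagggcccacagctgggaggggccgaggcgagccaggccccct
Plaur: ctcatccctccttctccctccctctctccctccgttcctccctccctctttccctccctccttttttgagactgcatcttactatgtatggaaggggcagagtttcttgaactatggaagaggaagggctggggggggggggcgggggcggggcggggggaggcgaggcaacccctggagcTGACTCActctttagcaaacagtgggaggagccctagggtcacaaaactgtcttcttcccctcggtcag
In F3 the motif began at -146 and -135 from the start site, in Procr at -154 and in Plaur at -69. The motif reads the same on both strands, so each site is counted once. Windows from 250 bases before to 50 after a RefSeq start site were searched for 6 of the 9 genes (8 windows), and the promoters of Thbd, Plau and Plat were not analysed here. AP-1 was found in 3 of these 8 windows and in 7.81% of all 32851 mouse windows of the same length. It was not found in those of Tfpi or F13a1, nor in that of F10. With 2 doses of CDN2 (20 µg), F10 rose more than F3, Procr and Plaur. On either strand, the GC box GGGCGG was found in 4 of the 8 windows and 35.7% of all, the TATA box TATAAA in 2 and 13.6%, and the core of the interferon-stimulated response element and the NF-kB consensus in 0 of 8, against 3.44% and 5.8% of all. A match describes letters only and is not a site of binding.

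In control tumors the 9 transcripts spanned a wide range. Per length of merged exons, on an FPKM-like scale, the mean level in PBS tumors after 1 dose was 16.4 for Tfpi, 15.1 for F3 and 10.9 for Plau. Procr followed at 5.46, Plaur at 3.67, Plat at 2.6 and F13a1 at 2.43. F10 and Thbd were lowest at 0.876 and 0.654. After 2 doses of CDN2 (20 µg) the order was different, with mean levels of 53.1 for Plaur, 51.4 for F3, 44.6 for Procr and 37.5 for Thbd, followed by F10 at 15.1. Tfpi, the highest of the 9 in PBS, was at 13.6 there.

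**Figure D1:**
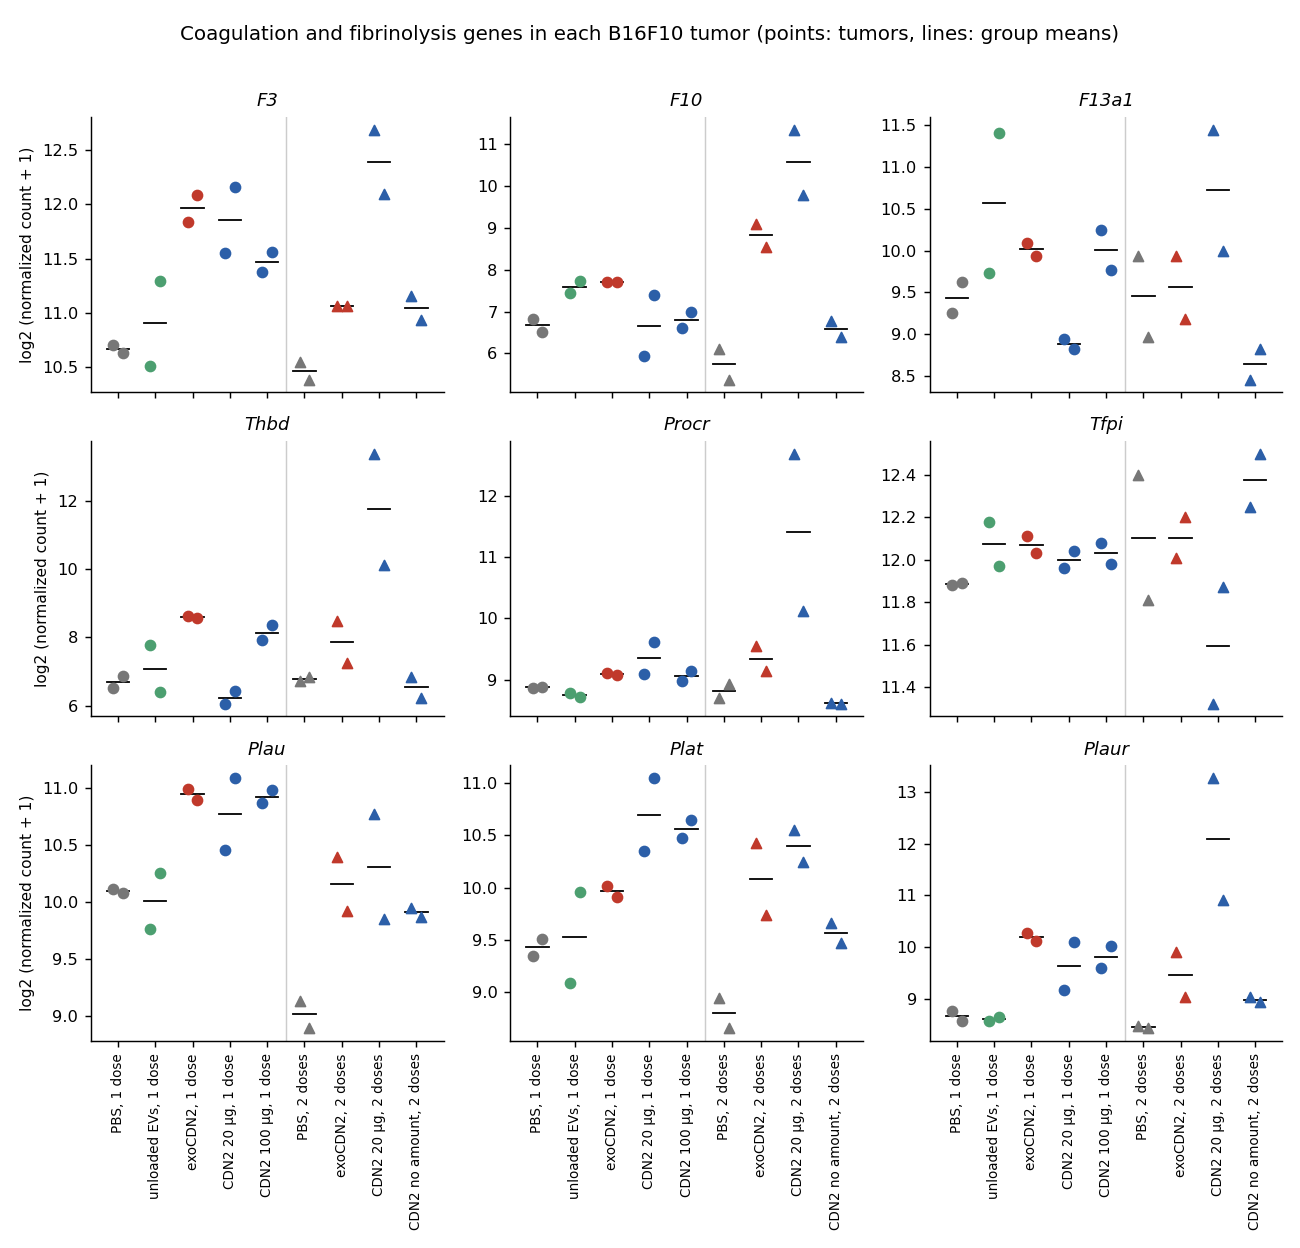
Log2 (normalized count + 1) of the 9 genes in each of the 18 tumors, by group. Circles are tumors after 1 dose, triangles after 2, and lines are the means of 2 tumors; the vertical axes differ between panels. Both tumors of CDN2 (20 µg), 2 doses, lie above all other tumors for Thbd, Procr, Plaur and F10, and tumor 1 lies well above tumor 2.

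Changes were tested with edgeR's quasi-likelihood test on all genes and called where the Benjamini-Hochberg adjusted p was below 0.05 and the ratio above 2, the limits the study used. Fold changes are given on the log2 scale with the standard error of the fit, and levels as normalized counts (expected counts divided by a size factor). After 1 dose, unloaded EVs gave 0 called genes of 9 by edgeR and 0 by DESeq2, with 1 (F13a1) at an unadjusted p under 0.05. The background was 0% of all genes, with 540 at an unadjusted p under 0.05 and 36 genes called by DESeq2. exoCDN2 gave 1 (F3, higher), against 2.62% of all genes called in either direction and 2.2% called higher. CDN2 (20 µg) gave 2 (F3 and Plat, both higher), against 3.14% in either direction and 2.26% higher. CDN2 (100 µg) gave 0 by edgeR against 2.44% of all genes, with 3 at an unadjusted p under 0.05 and 1 (Plat) called by DESeq2. In a list of 9 genes, counts this small cannot be told from the shares over all genes.

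After 2 doses the counts were larger. exoCDN2 gave 3 of 9 (F10, Plau and Plat, all higher), against 11.3% of all genes in either direction and 8.87% higher. CDN2 (20 µg) gave 7 of 9, all higher, against 30.6% in either direction and 20% higher. Without tumor 1 of CDN2, 6 of 9 were called, against 22% of all genes. The median log2 fold change of the 9 genes was 1.10 for exoCDN2 and 1.93 for CDN2 (20 µg), while the medians of all genes tested were 0.01 and 0. Comparisons with PBS at 1 time share the same pair of PBS tumors. The 2 tumors given 2 doses of CDN2 of no labelled amount showed 0 of 9 called by edgeR (17110 genes tested, 0.959% called) and 0 by DESeq2, with 3 at an unadjusted p under 0.05.

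**Figure D2:**
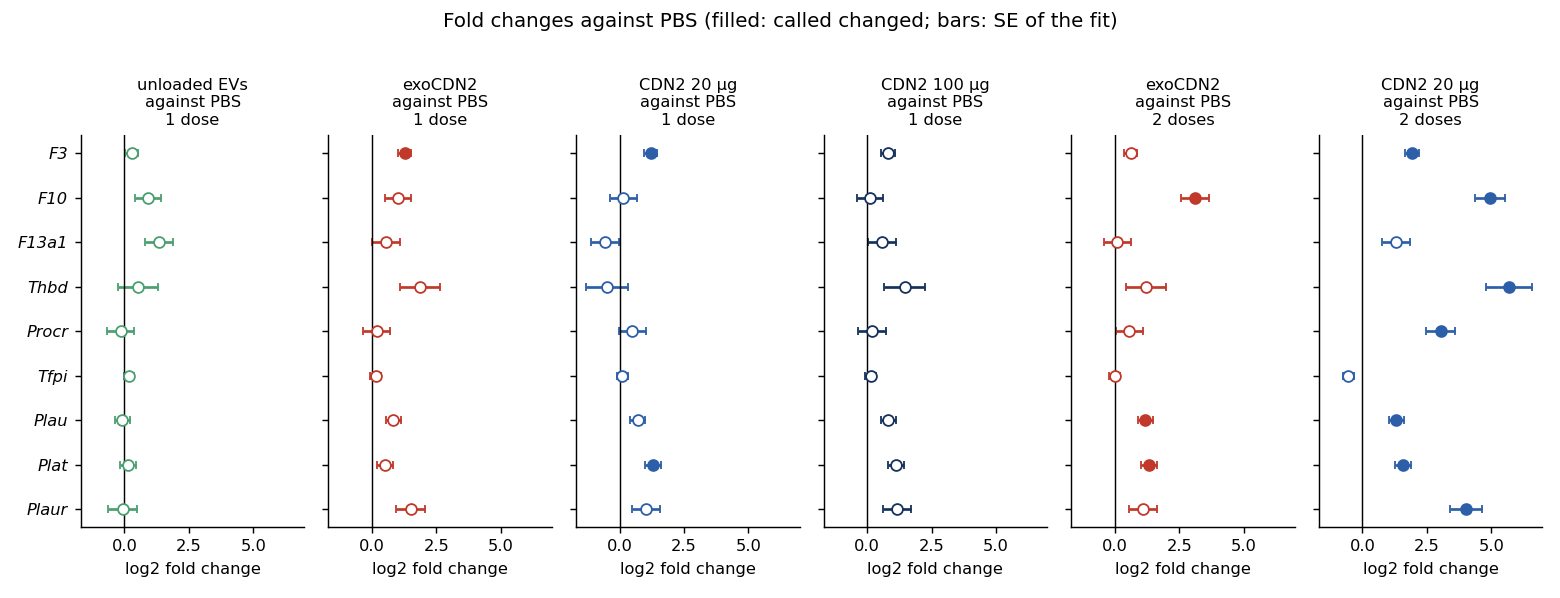
Log2 fold change of each gene against PBS tumors of the same number of doses, with the standard error of the edgeR fit as bars. Filled points were called (adjusted p under 0.05 and ratio over 2); F3 is filled in both 1-dose panels of exoCDN2 and CDN2 (20 µg), and 7 genes are filled after 2 doses of CDN2 (20 µg).

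Among the genes that start clotting, F3 (chr3:121723537-121735048, GRCm38, as for all gene positions here) was called after 1 dose. Its normalized counts were 1660 and 1580 in the PBS tumors after 1 dose, 1450 and 2510 with unloaded EVs, 3660 and 4360 with exoCDN2, 2990 and 4560 with CDN2 (20 µg) and 2670 and 3010 with CDN2 (100 µg). All 6 tumors given the agonist lay above all 4 tumors without it. The share of all genes with such an order was not counted, here or for the genes below. After 2 doses F3 was at 1490 and 1330 with PBS, 2130 and 2130 with exoCDN2, and 6610 and 4390 with CDN2 (20 µg), the highest group of all. The first dose raised F3 by 1.27 ± 0.26 (SE) with exoCDN2 and by 1.21 ± 0.26 with CDN2 (20 µg), at adjusted p = 0.021 and 0.023 in edgeR's test. With CDN2 (100 µg) the fold change was 0.80 ± 0.26 and was not called (adjusted p = 0.15, edgeR). After 2 doses F3 rose by 1.93 ± 0.27 with CDN2 (20 µg) (adjusted p = 0.00022, edgeR), or 1.63 without tumor 1, and the fold change with exoCDN2 was 0.61 ± 0.26 (adjusted p = 0.13). The order of the group means (log2 normalized count, SD, n = 2) was 12.40 ± 0.42 for CDN2 (20 µg), 2 doses, 11.96 ± 0.18 for exoCDN2, 1 dose, 11.85 ± 0.43 for CDN2 (20 µg), 1 dose, and 11.47 ± 0.12 for CDN2 (100 µg), and the neighbours among the first 3 did not differ beyond their spread. Leaving out any one of the 4 tumors ended the call for exoCDN2, at adjusted p from 0.068 to 0.20 in edgeR, and leaving out either PBS tumor or tumor 2 of CDN2 (20 µg) ended that for CDN2 (0.17 to 0.25).

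F10 (chr8:13037308-13056676), the zymogen of the enzyme that makes thrombin, rose with 2 doses of either agent and was not called after 1. It was at 113 and 90.2 normalized counts in PBS tumors after 1 dose, 174 and 212 with unloaded EVs, 209 and 208 with exoCDN2, 60.1 and 168 with CDN2 (20 µg) and 95.9 and 125 with CDN2 (100 µg). After 2 doses it was at 67.9 and 40.4 with PBS, 549 and 371 with exoCDN2 and 2610 and 883 with CDN2 (20 µg). These last 3 groups did not overlap and followed the order PBS, exoCDN2, CDN2. F10 rose by 3.10 ± 0.54 with 2 doses of exoCDN2 (adjusted p = 0.0022, edgeR) and by 4.95 ± 0.58 with CDN2 (20 µg) (adjusted p = 8.1e-05), or 4.02 without tumor 1. It was the 1 gene of the 9 whose rise with 2 doses of exoCDN2 was called whichever of the 4 tumors was left out. Against the 4 PBS tumors of both times, the rises of F10 were 2.58 and 4.43. After 1 dose, unloaded EVs differed from PBS by 0.92 ± 0.50 for F10, and exoCDN2 from unloaded EVs by 0.08 ± 0.49 (adjusted p = 0.97, edgeR). Without unloaded EVs at 2 doses, the part of the vesicles in the second-dose rise was not tested.

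F13a1 (chr13:36867178-37050244), the fibrin-stabilizing transglutaminase, varied widely between the 2 tumors of some groups. Its normalized counts were 607 and 784 with PBS after 1 dose, 851 and 2700 with unloaded EVs, 1090 and 982 with exoCDN2, 495 and 454 with CDN2 (20 µg) and 1220 and 871 with CDN2 (100 µg). After 2 doses they were 981 and 501 with PBS, 982 and 581 with exoCDN2 and 2780 and 1020 with CDN2 (20 µg). One unloaded-EV tumor and one CDN2 tumor held the highest values. In edgeR's main fits, no comparison with PBS called it. DESeq2, the fit against all 4 PBS tumors, the fit without tumor 2 of CDN2 and the fit without a low-count filter did call it for 2 doses of CDN2 (20 µg), and the last also called it for unloaded EVs. The largest of these fold changes were 1.35 ± 0.54 for unloaded EVs (adjusted p = 1) and 1.31 ± 0.54 for 2 doses of CDN2 (20 µg) (adjusted p = 0.062, edgeR), the latter 0.46 without tumor 1 (adjusted p = 0.54).

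Of the clotting brakes, Thbd and Procr rose with 2 doses of CDN2 (20 µg) and Tfpi was not called. Thbd (chr2:148404466-148408188), the lowest of the 9 genes per length in PBS tumors after 1 dose, was at 90.6 and 116 normalized counts with PBS after 1 dose and 104 and 114 after 2. A single dose put it at 219 and 82.8 with unloaded EVs, 396 and 378 with exoCDN2, 65.3 and 84.5 with CDN2 (20 µg) and 241 and 330 with CDN2 (100 µg). Both exoCDN2 tumors lay above the other 8 tumors of that time, yet the fold change of 1.87 ± 0.78 against PBS was not called (adjusted p = 0.26, edgeR). After 2 doses Thbd was at 352 and 150 with exoCDN2 and at 10700 and 1120 with CDN2 (20 µg). Its rise of 5.70 ± 0.89 with CDN2 (20 µg) was the largest of the 9 genes (adjusted p = 0.00042, edgeR), and without tumor 1 it was 3.36 (adjusted p = 0.00054). With 2 doses of exoCDN2 the fold change was 1.22 ± 0.77 (adjusted p = 0.32).

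Procr (chr2:155751117-155755471) stayed after 1 dose between 422 and 784 normalized counts in all 10 tumors. PBS tumors held 468 and 472, unloaded-EV tumors 439 and 422, exoCDN2 tumors 552 and 542, CDN2 (20 µg) tumors 549 and 784 and CDN2 (100 µg) tumors 506 and 569. After 2 doses it was at 416 and 488 with PBS and 750 and 564 with exoCDN2, but at 6570 and 1110 with CDN2 (20 µg). The rise with CDN2 was 3.03 ± 0.56 (adjusted p = 0.0011, edgeR), and it fell to 1.30 without tumor 1 (adjusted p = 0.00099). The fold change with 2 doses of exoCDN2 was 0.56 ± 0.53 (adjusted p = 0.52).

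Tfpi (chr2:84432855-84476775) was the highest of the 9 genes per length in PBS tumors and was called in no comparison. It was at 3770 and 3810 normalized counts with PBS after 1 dose, and lay between 3980 and 4640 in the other 8 tumors of that time. After 2 doses it was at 5400 and 3580 with PBS, 4120 and 4700 with exoCDN2 and 2550 and 3750 with CDN2 (20 µg). The CDN2 and PBS tumors overlapped. The fold change of -0.54 ± 0.21 with CDN2 (20 µg) was not called (adjusted p = 0.051, edgeR), and it was -0.27 without tumor 1 (adjusted p = 0.30).

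The plasminogen activators were higher after 2 doses of either agent, and Plat also after 1 dose of CDN2 (20 µg). Plau (chr14:20836660-20843385) was at 1100 and 1080 normalized counts with PBS after 1 dose, 863 and 1220 with unloaded EVs, 2040 and 1900 with exoCDN2, 1410 and 2180 with CDN2 (20 µg) and 1880 and 2020 with CDN2 (100 µg). All 6 agonist tumors lay above the 4 others, but fold changes of 0.82 ± 0.29, 0.71 ± 0.29 and 0.82 ± 0.29 were not called (adjusted p = 0.17 to 0.24, edgeR). After 2 doses Plau was at 558 and 474 with PBS, 1340 and 970 with exoCDN2 and 1750 and 922 with CDN2 (20 µg). The second-dose rises of 1.18 ± 0.29 with exoCDN2 (adjusted p = 0.015, edgeR) and 1.32 ± 0.29 with CDN2 (20 µg) (adjusted p = 0.0031) were measured from PBS tumors with less Plau than those of the first dose. That difference between the PBS groups was -1.09 ± 0.29 (adjusted p = 0.12, edgeR; called by DESeq2). Against all 4 PBS tumors the fold changes were 0.54 (adjusted p = 0.33) and 0.68 (adjusted p = 0.12), and neither was called. Without tumor 1 of CDN2, the second-dose value of Plau was 0.83 (ratio 1.78, adjusted p = 0.030), which also ended its call.

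Plat (chr8:22757727-22782844) was at 652 and 726 normalized counts with PBS after 1 dose, 546 and 994 with unloaded EVs, 1040 and 962 with exoCDN2, 1310 and 2120 with CDN2 (20 µg) and 1430 and 1610 with CDN2 (100 µg). All 4 tumors given free CDN2 lay above all others of the first dose. It rose by 1.30 ± 0.31 with CDN2 (20 µg) (adjusted p = 0.035, edgeR), while the fold changes with CDN2 (100 µg) and exoCDN2 were 1.13 ± 0.31 (adjusted p = 0.08) and 0.50 ± 0.31 (adjusted p = 0.48). A fit with replicate number as a block did not call Plat for CDN2 (20 µg) (adjusted p = 0.053), and leaving out either PBS tumor or tumor 2 of CDN2 also ended the call (0.20 to 0.35). After 2 doses Plat was at 494 and 403 with PBS, 1380 and 852 with exoCDN2 and 1500 and 1220 with CDN2 (20 µg). It rose by 1.33 ± 0.31 with exoCDN2 (adjusted p = 0.011, edgeR) and by 1.56 ± 0.31 with CDN2 (20 µg) (adjusted p = 0.0018), or 1.44 without tumor 1. For exoCDN2, both Plau and Plat lost their call without tumor 2 of PBS or without tumor 1 of exoCDN2 (adjusted p from 0.099 to 0.16). With the PBS tumors pooled, the rise of Plat fell to 0.99, just under a ratio of 2.

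Plaur (chr7:24462484-24475968), the urokinase receptor, was at 436 and 378 normalized counts with PBS after 1 dose and 381 and 400 with unloaded EVs. It was at 1250 and 1120 with exoCDN2, 578 and 1090 with CDN2 (20 µg) and 777 and 1040 with CDN2 (100 µg). All 6 agonist tumors lay above the 4 others, and none of the fold changes of 1.51 ± 0.56, 1.03 ± 0.55 and 1.15 ± 0.55 was called (adjusted p = 0.20, 0.41 and 0.36, edgeR). After 2 doses Plaur was at 353 and 347 with PBS, 956 and 524 with exoCDN2 and 9850 and 1920 with CDN2 (20 µg). It rose by 4.02 ± 0.61 with CDN2 (adjusted p = 0.00035, edgeR) and by 2.45 without tumor 1 (adjusted p = 0.00045), and the fold change with exoCDN2 was 1.10 ± 0.55 (adjusted p = 0.20).

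exoCDN2 (0.1 µg) and CDN2 (20 µg) were compared directly as given, so that carrier and amount cannot be told apart. After 1 dose, 0 of the 9 genes were called by edgeR and 0 by DESeq2, with 2 at an unadjusted p under 0.05, against 0.608% of all genes. For F3 the 95% interval of the difference ran from -0.51 to 0.63. For Plau it ran from -0.51 to 0.73, and for Thbd, with a difference of 2.35 ± 0.81, from 0.57 to 4.12 (adjusted p = 0.15, edgeR). After 2 doses F3, F10, Thbd, Procr and Plaur, 5 of 9, were lower with exoCDN2, against 19.4% of all genes called in either direction and 12% called lower.

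The differences of exoCDN2 from CDN2 (20 µg) after 2 doses were -4.48 ± 0.83 for Thbd, -2.92 ± 0.58 for Plaur, -2.47 ± 0.55 for Procr, -1.85 ± 0.49 for F10 and -1.31 ± 0.26 for F3 (adjusted p = 0.0033, 0.0042, 0.0065, 0.014 and 0.0046, edgeR). Neither plasminogen activator was called, with intervals from -0.76 to 0.48 for Plau and from -0.89 to 0.44 for Plat. Without tumor 1 of CDN2, Thbd (-2.15), Plaur (-1.37) and F3 (-1.03) were still called lower, Procr (-0.75, adjusted p = 0.038 with a ratio of 1.68) and F10 (-0.93, adjusted p = 0.17) were not, and 6.15% of all genes were called. A fit of only these 2 groups called 0 of the 9 (adjusted p from 0.15 to 0.16, edgeR). It has 2 residual degrees of freedom and uses only the spread of these 2 groups. exoCDN2 against unloaded EVs after 1 dose, the comparison that isolates the loaded compound, gave 0 called of 9 by edgeR, 2 (F3 and Plaur) by DESeq2 and 3 at an unadjusted p under 0.05, against 2.95% of all genes. The fold changes were 0.99 ± 0.26 for F3 (adjusted p = 0.067, edgeR) and 1.57 ± 0.56 for Plaur (adjusted p = 0.19). CDN2 (100 µg) against CDN2 (20 µg) gave 0 by both tools, with 1 at an unadjusted p under 0.05, against 0.455% of all genes. There the Thbd difference of 1.93 ± 0.81 had an interval from 0.16 to 3.70 (adjusted p = 0.26, edgeR).

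The change from the first to the second dose was compared within each agent. With CDN2 (20 µg), 5 of 9 genes were higher after 2 doses than after 1, against 20.8% of all genes in either direction and 14.4% higher. They were Thbd (6.25 ± 0.93), F10 (3.90 ± 0.54), Plaur (2.77 ± 0.58), Procr (2.47 ± 0.55) and F13a1 (1.95 ± 0.55), at adjusted p from 0.00083 to 0.018 in edgeR's test. When tumor 1 of 2 doses was left out, Thbd (3.91), F10 (2.96) and Plaur (a ratio of 2.30) were still called, and Procr (0.74, a ratio of 1.67) and F13a1 (1.10, adjusted p = 0.17) were not. F3, with 0.51 ± 0.26 (adjusted p = 0.14), Plau and Plat were not among them. Leaving out tumor 1 of 1 dose ended the calls of F13a1, Procr and Plaur (adjusted p = 0.091, 0.060 and 0.051). With exoCDN2, 0 of 9 were called by edgeR and 0 by DESeq2, against 7.44% of all genes, with 3 at an unadjusted p under 0.05, of which F3 (-0.86 ± 0.26, adjusted p = 0.052) and Plau (-0.72 ± 0.28, adjusted p = 0.12) were lower and F10 (1.19 ± 0.49, adjusted p = 0.14) was higher. With PBS, 0 were called by edgeR and 1 (Plau) by DESeq2, with 1 at an unadjusted p under 0.05, against 1.1% of all genes.

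Relative to the change in PBS tumors, 4 of 9 genes rose more from dose 1 to dose 2 of CDN2 (20 µg), against 16.8% of all genes in either direction and 11.7% higher. They were Thbd (6.18 ± 1.17), F10 (4.80 ± 0.75), Plaur (2.99 ± 0.79) and Procr (2.54 ± 0.75), and without tumor 1 of 2 doses 3.83, 3.85, 1.41 and 0.79. Without tumor 1 of 2 doses, the direct comparison called 3 of 9 (12.6% of all genes) and the one relative to PBS called 2 of 9 (12.2% of all genes), F10 and Thbd in both. The same comparison for exoCDN2 called 0 of 9 by edgeR against 6.82% of all genes, with 1 at an unadjusted p under 0.05 and 1 (F10) called by DESeq2. F10 changed there by 2.10 ± 0.72 (adjusted p = 0.10, edgeR).

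**Figure D3:**
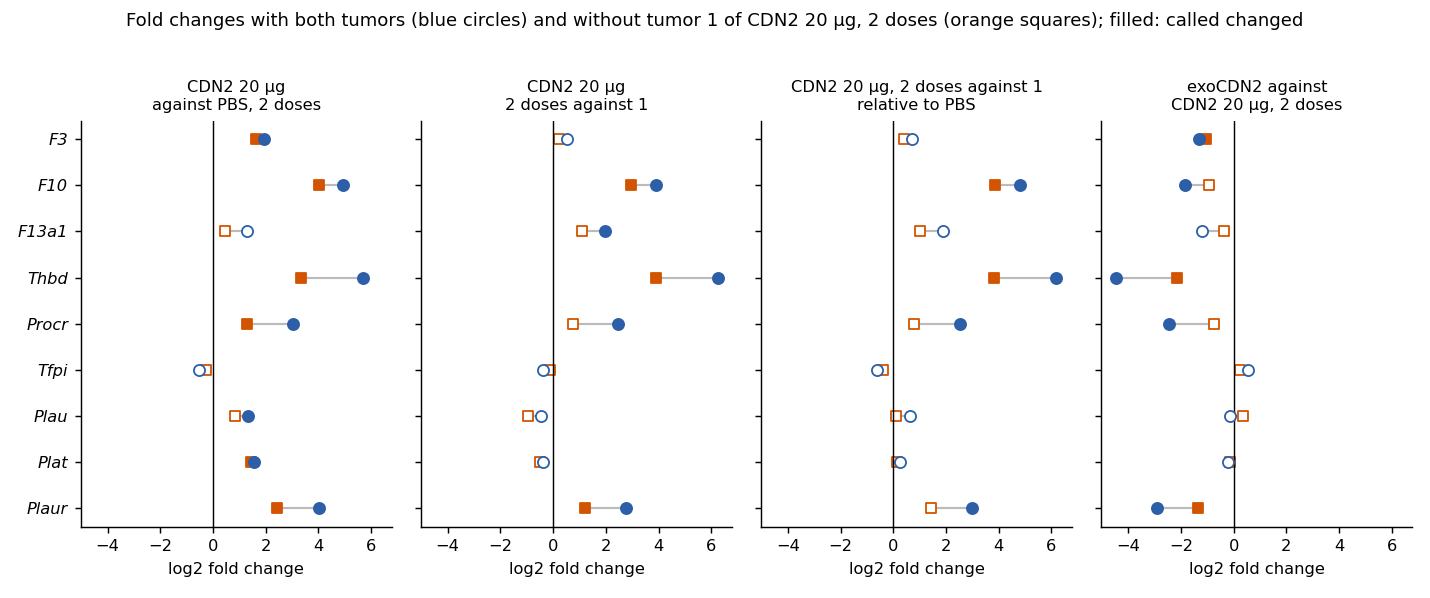
Log2 fold changes of the 9 genes in the 4 comparisons that include CDN2 (20 µg), 2 doses, with both of its tumors (blue circles) and without tumor 1 (orange squares); filled marks were called. Every called value moves toward 0 without tumor 1, most for Thbd, and Thbd stays called in all 4.

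The other genes of the pathway were followed through a list of 41, of which 25 had enough counts to test. The substrates of clotting and fibrinolysis were near 0 as transcripts: across 18 tumors, plasminogen (Plg) reached at most 2 counts and the fibrinogen chains Fga, Fgb and Fgg at most 5, 2 and 1. Of the 25, 1 (F2r) was lower after 1 dose of CDN2 (20 µg), against 3.14% of all genes called in either direction. After 2 doses, 6 were higher and 0 lower with exoCDN2, and 16 were higher and 2 lower with CDN2 (20 µg), the latter being Ggcx, the vitamin K-dependent carboxylase, and Vwf, von Willebrand factor, named after their values were seen. Over all genes tested, 8.87% were called higher with exoCDN2 and 20% with CDN2 (20 µg), or 11.3% and 30.6% in either direction. The median log2 fold changes of the 25 were 0.69 and 1.62. Without tumor 1 of CDN2, 12 were higher and 0 lower.

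Serpinb2, which encodes PAI-2, an inhibitor of urokinase made by monocytes and keratinocytes, rose by 5.97 ± 1.15 with 2 doses of CDN2 (20 µg) (adjusted p = 0.0014, edgeR) and by 3.35 without tumor 1 (adjusted p = 0.0071). It also differed by 4.15 ± 1.07 after 1 dose of exoCDN2 without passing the test (adjusted p = 0.06), although 6 of 8 other settings called it. Unloaded EVs differed from PBS by 2.94 ± 1.02 for Serpinb2 (adjusted p = 1, edgeR), and exoCDN2 from unloaded EVs by 1.21 ± 0.94 (adjusted p = 0.65). Serpinb6b, another serpin of the same clade, rose by 2.85 ± 0.39 and 2.59 ± 0.39 with 2 doses of exoCDN2 and CDN2 (adjusted p = 0.00050 and 0.00034, edgeR), though reads of its close paralogs could be shared.

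Partners of the clotting genes moved too. Factor VII (F7), the ligand of tissue factor, rose by 1.43 ± 0.43 with 2 doses of exoCDN2 (adjusted p = 0.040, edgeR) and by 2.47 ± 0.45 with CDN2 (20 µg) (adjusted p = 0.00097). Tfpi2, a relative of Tfpi that inhibits plasmin and other matrix proteases, rose by 1.80 ± 0.41 and 4.54 ± 0.45 in the same comparisons (adjusted p = 0.0099 and 3.4e-05, edgeR), while Tfpi did not. Tgm2, a tissue transglutaminase, rose by 2.74 ± 0.43 and 4 ± 0.45 (adjusted p = 0.0011 and 7e-05). The PBS tumors were at Tgm2 log2 levels of 9.13 and 8.90 after 2 doses and 10.76 and 10.75 after 1, a difference that was not called (-1.74 ± 0.41, adjusted p = 0.08, edgeR), and against all 4 PBS tumors the rises were 1.62 and 2.88. F2rl2, which encodes the receptor PAR3, rose by 3.40 ± 0.69 and 3.00 ± 0.71 (adjusted p = 0.0056 and 0.0048, edgeR), from 6 and 4 counts in the PBS tumors. With exoCDN2, the calls of Serpinb6b and Tgm2 held whichever of the 4 tumors was left out, while F7 kept its call in 1 of these 4 fits and Tfpi2 and F2rl2 in 2. With CDN2 (20 µg) these 5 genes and Serpinb2 were called in all 4, and without tumor 1 the rises were 3.13 for Tgm2, 3.84 for Tfpi2, 1.87 for F7, 2.56 for F2rl2 and 2.41 for Serpinb6b. The thrombin receptor gene F2r fell by 1.48 ± 0.33 on the log2 scale after 1 dose of CDN2 (20 µg) (adjusted p = 0.028, edgeR). Its log2 levels there were 6.51 and 6.18 against 7.90 and 7.72 with PBS, beside summed endothelial markers of 37.7 and 39.1 CPM against 99.8 and 104. Leaving out any one of these 4 tumors ended the F2r call. With CDN2 (100 µg) F2r was not lower, at 0.29 ± 0.32 against PBS (adjusted p = 0.79, edgeR). There it was 1.77 ± 0.34 above CDN2 (20 µg) after 1 dose (adjusted p = 0.048, edgeR), with endothelial markers at 95 and 129 CPM. The part of endothelial cells in the changes of F2r was not tested.

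**Figure D4:**
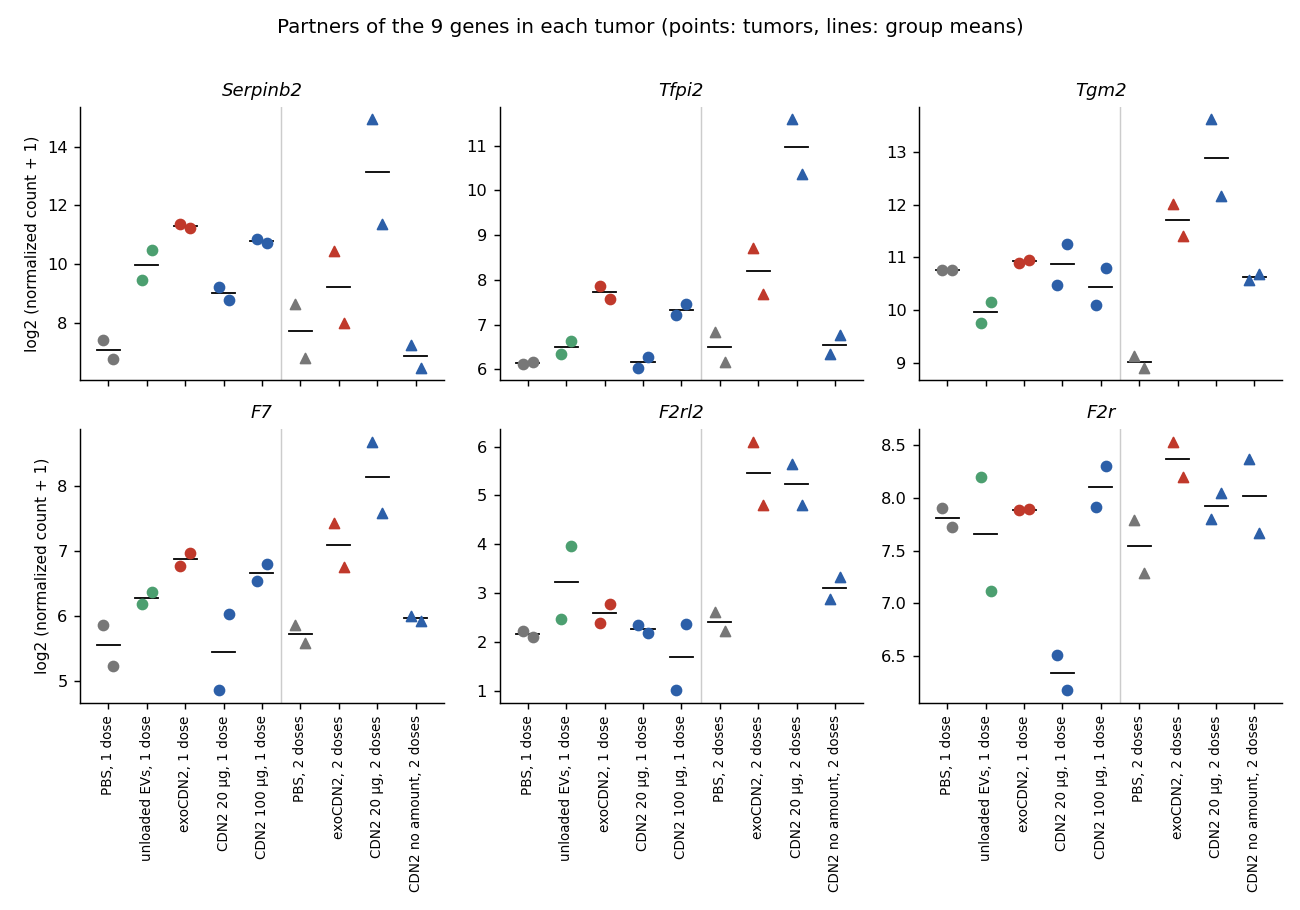
Log2 (normalized count + 1) of 6 partner genes in each tumor, drawn as for the 9 genes above. Tfpi2 and Tgm2 are highest in the 2 tumors given 2 doses of CDN2 (20 µg), Serpinb2 is highest in tumor 1 of that group, and F2r is lowest in the 2 tumors given 1 dose of CDN2 (20 µg).

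Between exoCDN2 and CDN2 (20 µg) after 2 doses 12 of the 25 pathway genes were lower and 2 (Ggcx and F8, named after their values were seen) higher, and without tumor 1 of CDN2 4 were lower and 0 higher. With all tumors kept, 19.4% of all genes tested were called in either direction and 12% lower. Tfpi2 differed by -2.74 ± 0.41, Serpinb2 by -4.28 ± 1.05 and Tgm2 by -1.26 ± 0.40 (adjusted p = 0.0015, 0.010 and 0.031, edgeR). Tfpi2 (-2.06) kept its call without that tumor, and Serpinb2 (-1.67, adjusted p = 0.16) and Tgm2 (-0.41, adjusted p = 0.43) did not.

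Markers of immune cells, platelets and fibroblasts moved with these genes after 2 doses. Over all genes tested, 20% were called higher with 2 doses of CDN2 (20 µg) and 8.87% with exoCDN2, or 30.6% and 11.3% in either direction. After 1 dose the shares called higher were 2.26% and 2.2%. The marker counts include tumor 1 of CDN2 (20 µg), 2 doses, which stood apart. With CDN2 (20 µg), 7 of 7 neutrophil, 6 of 6 monocyte and 5 of 6 tested platelet markers were higher, 5 of 8 macrophage markers were higher and 1 lower, and 4 of 7 melanoma markers were lower. Their summed levels in these tumors were 906 and 216 CPM for neutrophil markers, 1800 and 575 for monocyte and 89.8 and 33.6 for platelet markers, against at most 2.39, 32.6 and 7.02 in PBS tumors of 2 doses. With exoCDN2, 6 of 6 monocyte and 6 of 7 neutrophil markers were higher, at 700 and 404 and at 72.8 and 23.8 CPM, and platelet markers summed to 11.1 and 6.91 CPM. Endothelial markers, which mark a cell type that expresses Thbd, Procr and Tfpi, were at 65.9 and 106 CPM with 2 doses of CDN2 and 109 and 95.9 with PBS, 1 of 8 higher and 1 lower. Fibroblast markers were higher for 4 of 6 with CDN2, at 1720 and 846 CPM, and for 2 of 6 with exoCDN2, at 990 and 438 CPM, against 352 and 354 with PBS. Keratinocyte markers varied from 0.33 to 124 CPM across tumors and within groups, at 20.9 and 1.86 CPM with 2 doses of CDN2. After 1 dose, where F3 rose, neutrophil markers summed to 68.2 and 40.8 CPM with exoCDN2 (3 of 7 higher) and 14.7 and 34.2 with CDN2 (20 µg) (2 of 7 higher), against 5.11 and 5.32 with PBS, and 6 of 8 endothelial markers were lower with CDN2 (20 µg). The part of any cell type in the changes of the 9 genes was not tested.

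**Figure D5:**
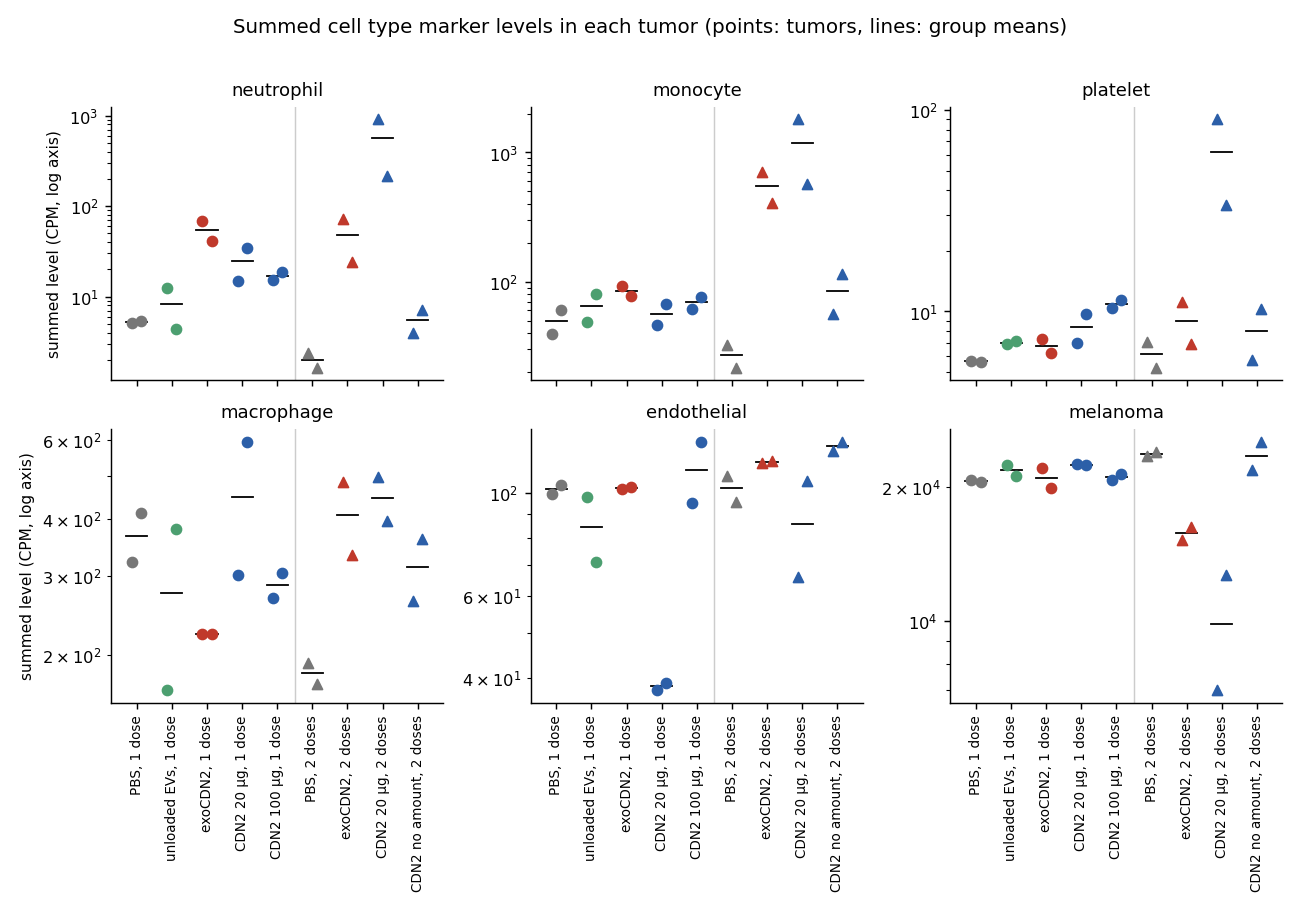
Summed CPM (library-size scaled counts) of 6 fixed cell type marker lists in each tumor, on log axes; circles are tumors after 1 dose and triangles after 2. Neutrophil, monocyte and platelet sums are highest in tumor 1 of CDN2 (20 µg), 2 doses, at 906, 1800 and 89.8 CPM, and melanoma sums are lowest there, at 6990 CPM.

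Across the 16 tumors of the 8 labelled groups the 9 genes varied in sets, described here by Pearson's r of log2 normalized counts with no test, since the tumors share treatments and 1 tumor leads several genes. Procr and Plaur (0.92), Thbd and Plaur (0.91) and Thbd and Procr (0.88) lay closest, followed by F3 and Plaur (0.87) and Plau and Plat (0.85). Plau had r of 0.28 with both Thbd and Procr. Tfpi was negative with the other 8, from -0.19 with Plau to -0.78 with Procr. Among all genes tested, the closest patterns were those of Sod2 for Procr (0.99), Ccr1 for F10 (0.98), Upp1 for Plaur (0.98), Pdpn for Thbd (0.96), Zfp748 for Tfpi (0.96), Gm44851 and Nfkbia for F3 (0.95 each), Jun for Plat (0.94), Crem for Plau (0.93) and Anxa3 for F13a1 (0.89).

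In the 2 tumors given 2 doses of CDN2 of no labelled amount, 0 of the 9 genes were called against PBS, beside 0.959% of all genes. With 2 tumors a group this does not show that the levels were alike: for Plau the 95% interval ran from 0.29 to 1.48. F3 was at 2270 and 1950 normalized counts, Plau at 989 and 934 and Plat at 808 and 706, each above both PBS tumors of 2 doses, with fold changes of 0.57 ± 0.26, 0.89 ± 0.28 and 0.74 ± 0.30 (adjusted p = 0.46, 0.22 and 0.40, edgeR on 18 tumors). Thbd was at 114 and 73.4, Procr at 395 and 390, F10 at 109 and 83.6 and Plaur at 523 and 493. For all 4 genes these tumors, like all others, lay below both tumors given 2 doses of CDN2 (20 µg). These groups were not tested against each other. Tfpi was at 4880 and 5790. F13a1 was at 350 and 453, below both PBS tumors of 2 doses, with a fold change of -0.90 ± 0.51 (adjusted p = 0.59, edgeR on 18 tumors).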

How the data were processed

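Reads were quality filtered by the authors, who used the OSA aligner (OmicSoft ArraySuite 10.1) on GRCm38, the mm10 build, and RSEM with Ensembl R88 annotation. The deposited values are expected counts, with no normalization, in 1 column per tumor. Strandedness of the libraries was not given in the sources used here. No annotated gene overlaps any of the 9 genes.

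Values were rounded to whole counts. Symbols came from GENCODE M21 (GRCm38), which matched 50376 of 50600 identifiers. In R 4.3.3, edgeR 4.0.16 kept genes by filterByExpr (minimum count 10, total 15), scaled libraries by TMM and fitted 1 quasi-likelihood model with 1 mean per group to 16 tumors of 8 groups, or to 18 tumors for the group with no labelled amount. P-values were two-sided and Benjamini-Hochberg adjusted over all genes tested, since exact permutation of 2 tumors against 2 cannot go below p = 0.333. DESeq2 1.42.0 gave the size factors of the normalized counts and an alternative test, the one the study used. The step was tested on simulated data.

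The members and all lists were chosen with earlier results of these data known. The genes named were the 9 members, pathway genes called against PBS in at least 2 of 6 comparisons, fixed partners (Serpinb2, F7, F2r, Plg, Fga, Fgb, Fgg, and 1 gene not reported here) and, for each member, the genes of highest correlation. Marker lists for endothelial, macrophage, monocyte, neutrophil, platelet, keratinocyte, fibroblast, melanoma and hepatocyte genes were summed as TMM-scaled CPM. Replicate pairs differed beyond counting noise, so no tumor was counted as a duplicate. On average, same-numbered tumors did not deviate together (mean correlation 0.017 over 36 pairs of groups, from -0.18 to 0.31). The replicate number was therefore not used as a block in the reported tests. The highest value, 0.31, was that of exoCDN2 and CDN2 (20 µg) after 2 doses. Alternatives were DESeq2, RLE scaling, no low-count filter, no ratio limit, a replicate block, pooled PBS tumors, all 18 tumors, only the groups compared, and each tumor left out.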

Additional observations from a re-analysis of the deposited data

Results flagged for a closer look

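A difference between the effects of the first and the second dose drew attention for 4 genes. From dose 1 to dose 2 of CDN2 (20 µg), beyond the change in PBS tumors, Thbd rose by 6.18 ± 1.17 (log2, SE), F10 by 4.80 ± 0.75, Plaur by 2.99 ± 0.79 and Procr by 2.54 ± 0.75 (adjusted p = 0.0057, 0.0028, 0.021 and 0.033, edgeR's quasi-likelihood test of the interaction). Both tumors of 2 doses lay above both tumors of 1 dose for all 4 genes. These genes were picked by a contrast that includes this difference, so the order of the tumors adds no support. Without tumor 1 of 2 doses the values were 3.83 for Thbd and 3.85 for F10, still called, and 1.41 for Plaur and 0.79 for Procr, no longer called (adjusted p = 0.059 and 0.077). Procr kept its call in 1 and Plaur in 2 of the 8 fits that left out a tumor. Beside this, summed neutrophil markers were at 14.7 and 34.2 CPM after 1 dose and 906 and 216 after 2, and monocyte markers at 46 and 67.6 and then 1800 and 575. The part of these cells in the rises was not tested.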

How the results depend on the processing

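Of 192 counts of called genes under an alternative, 143 stayed within 1.5 times the reported count and 49 did not. Of 338 alternative values of the 27 called fold changes of the 9 genes, 285 kept their call and 0 turned direction, and all 18 ranges of levels moved by less than 1 SD on another scale. Numbers in brackets give the genes called among all genes tested in the same fit, 28330 without a filter on low counts and 16927 otherwise. Without that filter, the number of the 9 genes called against PBS after 1 dose was 1 for unloaded EVs (227), 4 for exoCDN2 (1166) and 3 for CDN2 (100 µg) (1178). After 2 doses it was 5 for exoCDN2 (2446). It was 2 for exoCDN2 against unloaded EVs (1101). Against CDN2 (20 µg) after 1 dose it was 2 for exoCDN2 (707) and 2 for CDN2 (100 µg) (800). Between doses it was 1 for exoCDN2 (1886), 1 for PBS (766) and 1 for exoCDN2 relative to PBS (2045). With the 4 PBS tumors pooled, exoCDN2 gave 2 after 1 dose (685) and 1 after 2 (1654), and CDN2 (100 µg) gave 1 (600). Fits of only the groups compared use only their own spread and have few residual degrees of freedom. Against PBS after 1 dose they gave 4 for exoCDN2 (1341) and 3 for CDN2 (100 µg) (1363). They gave 1 for exoCDN2 against unloaded EVs (655) and 2 for CDN2 (100 µg) against CDN2 (20 µg) (281). For exoCDN2 against CDN2 (20 µg) they gave 2 after 1 dose (352) and 0 after 2 (35). Between doses they gave 1 for exoCDN2 (1533), 2 for CDN2 (20 µg) (659) and 1 for PBS (299). Relative to PBS they gave 1 for exoCDN2 (1695) and 2 for CDN2 (20 µg) (1160). DESeq2 gave 1 for CDN2 (100 µg) (667) and 2 for exoCDN2 against unloaded EVs (696). It gave 1 between the PBS times (389) and 1 for exoCDN2 between doses relative to PBS (1571). In these settings, apart from the size of each fit, the cause was not tested.

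With the replicate number as a block, 1 of the 9 genes was called for CDN2 (20 µg) after 1 dose, beside 514 of all 16927 genes. No other count of the 9 changed. Same-numbered tumors share only a number, and their deviations had a mean correlation of 0.017, from -0.18 to 0.31 between pairs of groups. Crossing the numbers of the CDN2 (20 µg) tumors, an alternative chosen after seeing the data, left 7 called against PBS after 2 doses and 5 between doses. Of all genes, 5185 and 3503 were called in these fits.

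Leaving out each tumor in turn gave 0 called for exoCDN2 after 1 dose, 0 to 2 for CDN2 (20 µg) after 1 dose, 1 to 3 for exoCDN2 and 6 to 8 for CDN2 (20 µg) after 2 doses, and 0 to 1 for exoCDN2 against unloaded EVs. It gave 3 to 6 for exoCDN2 against CDN2 (20 µg) after 2 doses, 2 to 5 for CDN2 (20 µg) between doses and 2 to 6 for the same relative to PBS. The lone tumor left in a group was taken to vary like the other groups. The number of all genes called also moved in these fits, so these counts are a description. Fold changes that were not called turned sign for Thbd with unloaded EVs (-0.32 to 1.07), F13a1 and F2rl2 in exoCDN2 against unloaded EVs (-1.42 to 0.26 and -1.55 to 0.12), and F2rl2 in CDN2 (100 µg) against CDN2 (20 µg) (-1.79 to 0.11). Serpinb2 turned between the PBS times (-0.32 to 1.54) and for CDN2 of no labelled amount (-1.74 to 0.12), both without tumor 1 of PBS after 2 doses. Counts of the 9 genes ran from 44 for F10 to 8010 for Tfpi, and 2 tumors a group limit the precision.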
